A study of Drosophila melanogaster with 16 samples.

Results

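Circadian clock genes of Drosophila were examined on 2-colour arrays that compared RNA from cells with activated Notch with a comparison RNA from the same cell line. The genes were chosen by symbol in the platform annotation: vri, Pdp1, Cipc, per, tim, cwo, Clk, cyc and cry. Of these 9 genes 8 had a named probe among 11980 named genes, and cwo, a repressor of the loop, was not analysed here. vri had been picked because its log ratios in these arrays were large, so its values are given as a description with no test. The other genes joined it by their known function, with results of these data already in view.

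The DmD8 arrays set DmD8 cells exposed for 30 minutes to 2 mM EDTA in PBS against a DmD8 comparison RNA. EDTA is a chelator of divalent ions that releases the outer part of Notch. By one set of labels the comparison RNA came from cells given PBS alone, and by another from cells kept overnight in 300 µM DFK-167, which blocks the presenilin enzyme needed to release the inner part of Notch, and then given EDTA. The 5 columns under each set of labels held the same values, apart from 24 of 71019 that differed by at most 4.87e-08, so these arrays were counted once and which RNA they carried is not settled. The Kc arrays set Kc cells given the same EDTA exposure against Kc cells given PBS alone. No inhibitor was used in Kc, so Notch activation and other effects of EDTA cannot be told apart there. The same holds in DmD8 if its comparison RNA came from cells given PBS alone. DmD8 is a line derived from imaginal disc tissue and Kc a line of embryonic origin, and each is 1 line. Log ratios hold no level, so the markers of either line could not be checked.

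There were 5 DmD8 and 6 Kc arrays with values for 13353 to 15638 of 17258 probes each. Arrays 1 to 3 of each line had activated RNA in Cy5, and the others were dye swaps with activated RNA in Cy3. The labels give 3 biological replicates per experiment, so the swaps are read as repeats of the same RNA, and P values over arrays are too small. For this reason each call below is set beside the weakest result over 36 fits. In these fits the swaps were averaged with a replicate in every possible way. The DmD8 Cy5 array left without a swap had its own term in each fit, so it entered neither the DmD8 mean nor the difference. A positive log ratio is read as higher in activated cells. This direction is assumed rather than recorded: it follows how the labels assign the dyes and takes the swap columns as already turned by the submitters. The log base is not recorded either, so log ratios are not given as folds.

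In flies the CLOCK and CYCLE proteins bind DNA as a pair and switch on per and tim, whose proteins return to the nucleus and shut off that pair, so that levels rise and fall daily. The same pair switches on vri and Pdp1, whose basic leucine zipper proteins act on the Clk gene, vri to repress it and Pdp1 to raise it. Schneider cells, another Drosophila line, lack a running clock and are used for that reason to test clock proteins, and some clock genes have other roles in growth and development.

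vri, the leucine zipper repressor of Clk, had opposite signs in the lines. Its log ratio on DmD8 arrays 1 to 5 was -0.51, -0.61, -0.85, -0.35 and -0.50. In Kc, arrays 1 to 6 gave 1.77, 2.46, 2.43, 1.91, 2.55 and 2.57. All 5 DmD8 arrays were below 0 and all 6 Kc arrays above it, and the lowest Kc value was far above the highest DmD8 value. The fitted mean was -0.54 ± 0.13 in DmD8 and 2.28 ± 0.11 in Kc (SE, n = 5 and 6 arrays). The Kc mean ranked 6 from the top among 12952 features, and the DmD8 mean ranked 226 from the bottom. A feature is a named gene, or a probe with no symbol or with several. A ratio from bulk RNA does not tell a change in every cell from a change in a fraction of them.

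The vri values, taken as deposited, held their sign in both dye orientations. If the swaps had not been turned by the submitters, the vri mean would be -0.12 in DmD8 and -0.063 in Kc, and its difference between the lines -0.055, so each direction given here rests on that reading. In DmD8 its mean was -0.66 with activated RNA in Cy5 and -0.42 with activated RNA in Cy3, and in Kc it was 2.22 and 2.34. The DmD8 minus Kc difference was -2.88 within the Cy5 orientation and -2.77 within the Cy3 orientation, and -2.82 ± 0.17 over the 11 arrays. Within Kc, arrays 1 and 4 were the lowest pair, at 1.77 and 1.91, and the other 4 lay between 2.43 and 2.57. Arrays 1 and 4 also deviated together across 10060 features complete on all arrays, with a correlation of 0.54 over features, which are not independent replicates. Arrays 2 and 5 had 0.40 and arrays 3 and 6 had 0.33, while the 6 other Cy5 and swap pairings in Kc lay between -0.34 and -0.06. Deviations within an orientation cancel out for each feature, so a positive pairing forces a negative one elsewhere. The negative values are therefore not separate evidence on which arrays share RNA.

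**Figure D1:**
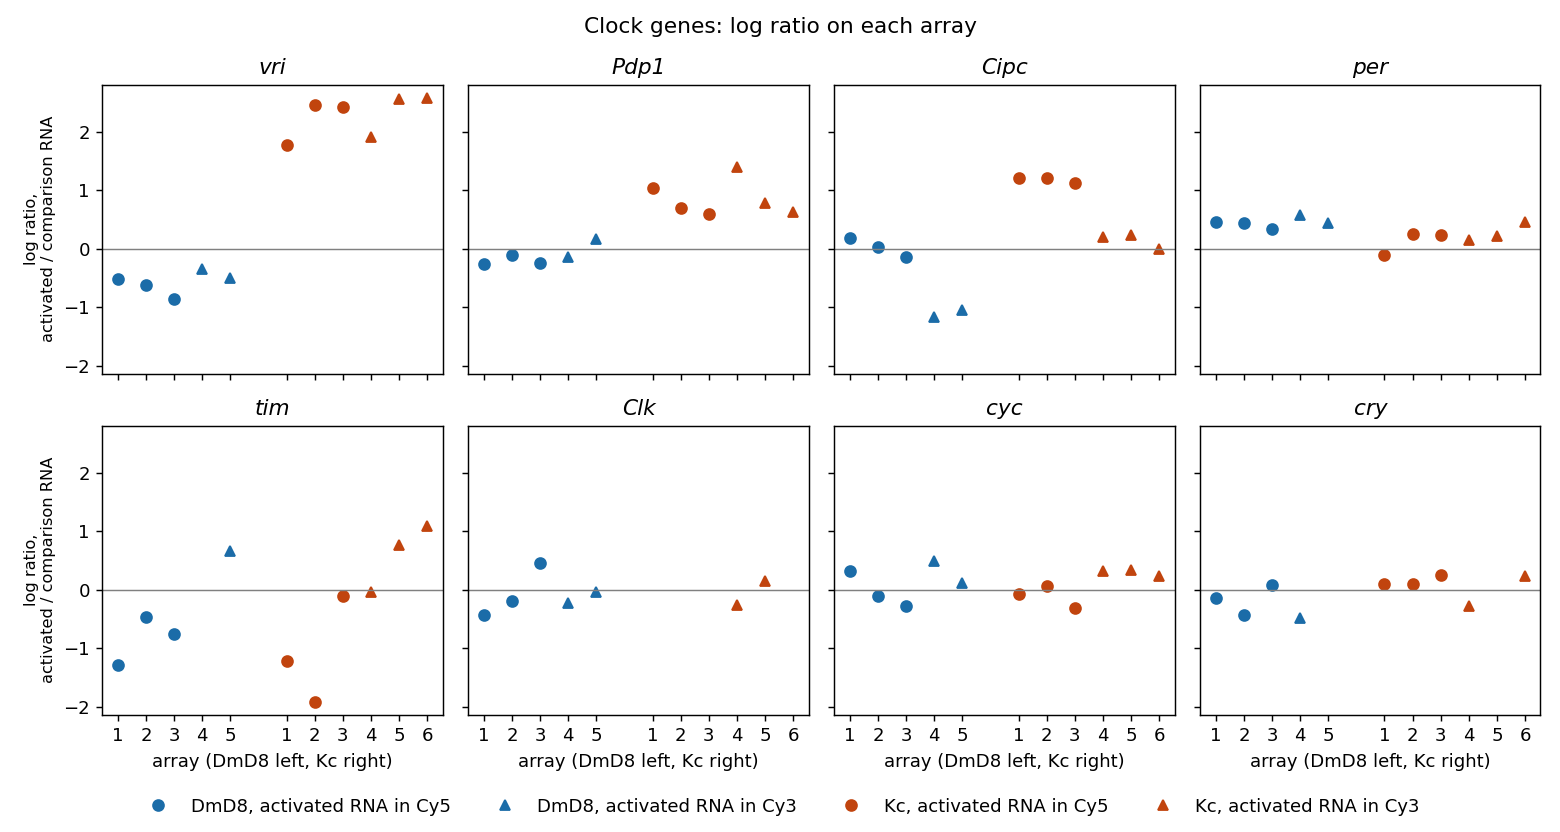
Log ratio of activated over comparison RNA (vertical axis, log base not stated) of the 8 clock genes on each array (horizontal axis; DmD8 arrays 1 to 5 at left, Kc arrays 1 to 6 at right). Circles are arrays with activated RNA in Cy5 and triangles dye swaps. vri lay below 0 on 5 of 5 DmD8 arrays and above 1.7 on 6 of 6 Kc arrays, Pdp1 was positive on 6 of 6 Kc arrays, and the swap values of Cipc lay below its Cy5 values in DmD8 and in Kc.

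Pdp1, the activator that competes with vri for the Clk gene, was likewise lower in DmD8 than in Kc. Its log ratio was -0.26, -0.11, -0.24, -0.14 and 0.16 on DmD8 arrays 1 to 5. Kc arrays 1 to 6 gave 1.03, 0.70, 0.59, 1.39, 0.77 and 0.63. The lines did not overlap, and 6 of 6 Kc arrays but 1 of 5 DmD8 arrays were positive. Pdp1 rose in Kc, with a mean of 0.85 ± 0.10 (SE, n = 6; limma, adjusted p = 0.0003; at most 0.00624 over every pairing). In DmD8 its mean was -0.097 ± 0.11 (SE, n = 5; limma, adjusted p = 0.663), which did not pass. The DmD8 minus Kc difference of -0.95 ± 0.15 passed its own test (limma, adjusted p = 0.00265; at most 0.0442 over every pairing). Pdp1 was highest on Kc arrays 1 and 4, the same arrays on which vri was lowest. The Pdp1 gene makes several transcripts, and which of them its 1 probe reads is not known here.

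Of the 6 tested clock genes other than vri, 2 passed the test in DmD8 (per and Cipc), 2 in Kc (Pdp1 and Cipc) and 2 for the difference between the lines (Pdp1 and Cipc). Over all 12952 features, 7.24% passed in DmD8 (3.08% higher, 4.16% lower), 11.9% in Kc (7.1% higher, 4.81% lower) and 10.9% for the difference (4.42% higher, 6.51% lower). Centring every array on its own median moved the share of calls that were higher to 54.4%, against 42.5% as deposited, in DmD8, and to 56.3%, against 40.4%, for the difference. In Kc it was 50.2% after centring, against 59.6% as deposited. With so few genes, chosen with these results in view, nothing is read from those counts. The median log ratio of the 6 was -0.092 in DmD8 and 0.15 in Kc, beside -0.039 and 0.011 for all features. For the difference it was -0.17, beside -0.060 for all features.

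Cipc, whose mammalian counterpart binds CLOCK and inhibits it, differed between the lines and between the dyes. On DmD8 arrays 1 to 3, with activated RNA in Cy5, its log ratio was 0.19, 0.033 and -0.14, and on the swap arrays 4 and 5 it was -1.16 and -1.05. On Kc arrays 1 to 3 it was 1.21, 1.20 and 1.13, and on the swap arrays 4 to 6 it was 0.20, 0.23 and 0.0020. Within each orientation every Kc value was above every DmD8 value, whereas across orientations the lines overlapped between 0.0020 and 0.19.

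The fitted Cipc mean over the orientations was -0.54 ± 0.07 in DmD8 (limma, adjusted p = 0.00124; at most 0.0446 over every pairing). It was 0.66 ± 0.07 in Kc (limma, adjusted p = 0.00011, at most 0.006 over every pairing). By orientation the Kc mean of Cipc was 1.18 with activated RNA in Cy5 and 0.14 with activated RNA in Cy3, so most of its rise lay in the Cy5 arrays. Its dye term, which is added in the Cy5 orientation and subtracted in the Cy3 orientation, also passed in both lines, at 0.57 ± 0.07 in DmD8 and 0.52 ± 0.07 in Kc (limma, adjusted p = 0.00243 and 0.00169). That term passed for 17.1% of all features in DmD8 and 20% in Kc. With the Cy5 arrays alone the DmD8 mean was 0.029 (limma, adjusted p = 0.868), so the fall of Cipc in DmD8 rests on the 2 swap arrays. The DmD8 minus Kc difference was -1.15 within Cy5, -1.25 within Cy3 and -1.20 ± 0.10 over all arrays (limma, adjusted p = 4.84e-05; at most 0.00753 over every pairing).

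**Figure D2:**
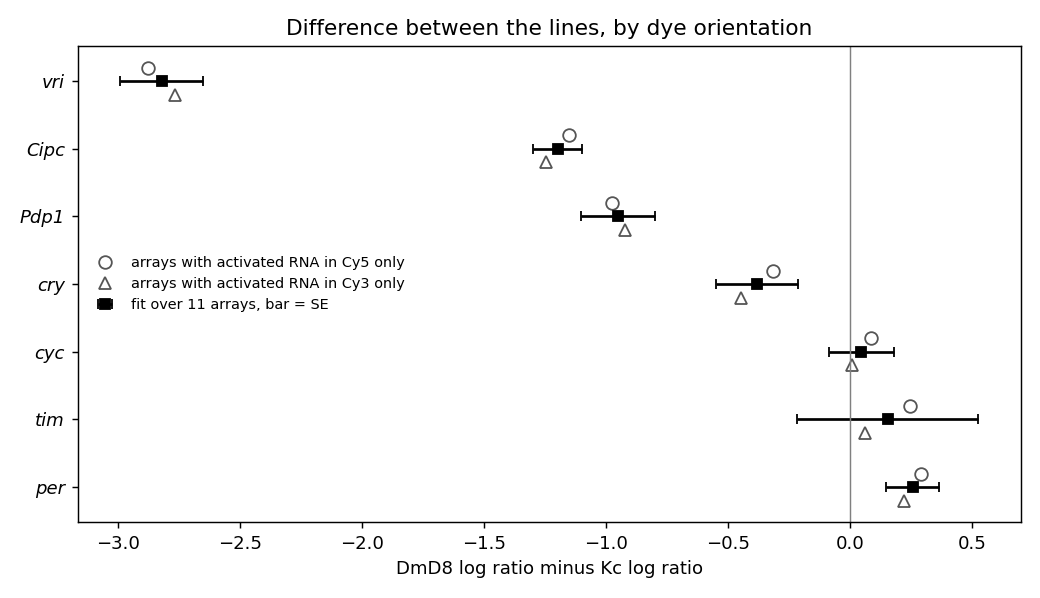
Difference of log ratio, DmD8 minus Kc (horizontal axis), for the 7 clock genes with a fitted value. Squares give the fit over 11 arrays with its SE, and open circles and triangles give the difference within the Cy5 and Cy3 orientations. vri, Cipc and Pdp1 lay at -2.82, -1.20 and -0.95, and both orientations stood close to the fitted value for each of these genes.

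per, which encodes the repressor whose mutants led to the fly clock, had small positive values in DmD8. Its log ratio was 0.46, 0.44, 0.34, 0.57 and 0.43 on DmD8 arrays 1 to 5. Kc arrays 1 to 6 gave -0.11, 0.25, 0.24, 0.16, 0.22 and 0.46. The lines overlapped, since Kc array 6 lay within the DmD8 range. per rose in DmD8, with a mean of 0.46 ± 0.08 (SE, n = 5; limma, adjusted p = 0.0051), but passed in 24 of the 36 pairings only (adjusted p up to 0.126), and without DmD8 array 4 it was at 0.0508. In Kc the mean was 0.20 ± 0.07 (limma, adjusted p = 0.101), and the difference between the lines of 0.26 ± 0.11 did not pass (limma, adjusted p = 0.17).

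tim, the partner of per that light removes, was read by 2 probes, which are averaged here. Its log ratio was -1.28, -0.47 and -0.76 on DmD8 arrays 1 to 3 and 0.66 on swap array 5, with no value on array 4. On Kc arrays 1 to 3 it was -1.22, -1.91 and -0.11, and on swap arrays 4 to 6 it was -0.045, 0.76 and 1.08. In both lines every swap value was above every Cy5 value. Where both probes had a value they differed least on Kc array 5, at 0.78 and 0.73, and most on Kc array 6, at 0.89 and 1.27, and on Kc array 3 they stood on opposite sides of 0, at -0.22 and 0.0090.

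The fitted tim mean was -0.087 ± 0.30 in DmD8 and -0.24 ± 0.21 in Kc (limma, adjusted p = 0.896 and 0.573). With each probe by itself the Kc mean was 0.025 for the 1 probe that could be tested. With the Cy5 arrays alone the Kc mean was -1.08 (limma, adjusted p = 0.0374), which passed. Its dye term was -0.75 ± 0.30 in DmD8 and -0.84 ± 0.21 in Kc (limma, adjusted p = 0.103 and 0.0239). The standard errors of tim were the widest among the tested clock genes, and a difference between the lines was not detectable at that width (0.15 ± 0.37; limma, adjusted p = 0.817).

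Among the activators and the light sensor, cyc and cry did not pass the test in either line and Clk could not be tested. Clk, the positive factor on which vri and Pdp1 act, had log ratios of -0.43, -0.19, 0.46, -0.23 and -0.045 on DmD8 arrays 1 to 5. In Kc Clk had values on 2 arrays only, -0.26 on array 4 and 0.15 on array 5, both swaps, so it entered no test. Its DmD8 values lay on both sides of 0, with 4 of 5 negative (mean -0.088 ± 0.34, SD, n = 5 arrays).

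cyc, the partner of Clk, ranged from -0.28 to 0.49 in DmD8 with a median of 0.12, and from -0.31 to 0.34 in Kc with a median of 0.15. The lines overlapped over almost their whole range. Its means of 0.14 ± 0.10 in DmD8 and 0.097 ± 0.09 in Kc did not pass (limma, adjusted p = 0.457 and 0.587). Clk and cyc are also the bHLH-PAS members among these genes, a protein family that dysf belongs to.

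cry, the blue light receptor that hands tim over for removal, had log ratios of -0.14, -0.44, 0.077 and -0.48 on DmD8 arrays 1 to 4. On Kc arrays 1, 2, 3, 4 and 6 it was 0.10, 0.096, 0.25, -0.29 and 0.23. It lacked a value on array 5 of each line, and the lines overlapped. Its means of -0.32 ± 0.13 in DmD8 and 0.061 ± 0.10 in Kc did not pass (limma, adjusted p = 0.213 and 0.81), nor did their difference of -0.38 ± 0.17 (adjusted p = 0.194).

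A list of 38 other genes of the clock was also examined, of which 30 had a named probe and 22 were tested. The 8 others with a probe lacked the 3 values per line and both dye orientations that the fit needed. These were the neuropeptide gene Pdf and its receptor gene Pdfr, na, Nlf-1, e, slo, gl and Fer2, most of them genes of neurons or of the eye. In DmD8, 0 of the 22 rose and 2 fell, and in Kc 2 rose and 0 fell (limma, 5 and 11 with an unadjusted p under 0.05, beside 19.7% and 24.6% of all features). With every array centred on its median the Kc number was 6. Against 7.24% of all features in DmD8 and 11.9% in Kc, 2 of 22 is near the background in either line.

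Among 8 tested genes grouped here under PER and TIM kinases, phosphatases and degradation, slmb fell in DmD8 and 0 passed in Kc. Over all features 7.24% passed in DmD8 and 11.9% in Kc. In Kc 7 of the 8 had an unadjusted p under 0.05 in limma, beside 24.6% of all features. In Kc jet (-0.37) and bdbt (-0.18) among the 7 had negative means and the others positive ones. Between the dye orientations in Kc, jet (-0.84 in Cy5, 0.10 in Cy3), wdb (0.52 and -0.17) and slmb changed sign, and the others of the 7 did not. P values over arrays are too small, for these genes and for all features alike. The genes were listed with earlier results of these data known, and centring the arrays lowered the Kc number among the listed genes. For these reasons nothing is read from the count of 7. slmb encodes the F-box protein that marks phosphorylated PER for removal. Its log ratio was -0.48, -0.67 and -0.74 on DmD8 arrays 1 to 3 and 0.10 and -0.13 on the swaps. On Kc arrays 1 to 3 it was -0.069, -0.19 and -0.19, and on the swaps it was 0.45, 0.48 and 0.54. As with tim, the swaps were higher in both lines, and the dye term passed in both (-0.31 ± 0.07 and -0.32 ± 0.06; limma, adjusted p = 0.0188 and 0.00993).

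The slmb mean was -0.32 ± 0.07 in DmD8 and 0.17 ± 0.06 in Kc (limma, adjusted p = 0.0195 and 0.123). The difference was -0.49 ± 0.10 (limma, adjusted p = 0.00862). The fall in DmD8 passed in 1 of the 36 pairings and the difference in 19 (adjusted p up to 0.298 and 0.143). The difference had an adjusted p of 0.129 with the Cy5 arrays alone (-0.48), and the fall had one of 0.0528 after centring on the median and was lost without DmD8 array 2, 3 or 5 (adjusted p = 0.059, 0.0517 and 0.14). The kinase dco, known as doubletime, stood at -0.20 ± 0.07 in DmD8 and 0.014 ± 0.06 in Kc, and passed in neither (limma, adjusted p = 0.103 and 0.939).

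Among 8 genes that act on the synthesis or activity of CLK, PER and TIM, kay passed in DmD8, and kay and ctrip passed in Kc. Over all features 7.24% passed in DmD8 and 11.9% in Kc. kay encodes the Fos protein, which is reported to repress CLK in clock neurons. Its log ratio was -1.24, -0.995, -0.36, -0.42 and -0.75 on DmD8 arrays 1 to 5, and 0.0028, 0.15, 0.37, 0.52, 0.76 and 0.77 on Kc arrays 1 to 6. All 5 DmD8 values were negative and all 6 Kc values above 0, so the lines did not overlap. kay fell in DmD8 (-0.73 ± 0.12; limma, adjusted p = 0.00331) and rose in Kc (0.43 ± 0.11; limma, adjusted p = 0.0225). Of the 36 pairings the fall passed in 32 and the rise in 27 (adjusted p up to 0.0691 and 0.0737). With the Cy5 arrays alone the Kc mean of kay was 0.17 (limma, adjusted p = 0.477), so its rise rests on the swap arrays, and it was lost without Kc array 3, 5 or 6 (adjusted p = 0.0721, 0.0734 and 0.0654).

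The DmD8 minus Kc difference of kay was -1.15 ± 0.16 (limma, adjusted p = 0.00119; at most 0.0271 over every pairing), and -1.04 with an adjusted p of 0.0654 in the Cy5 arrays alone. ctrip encodes a ubiquitin ligase that limits CLK and PER. Its log ratio was 0.036, 0.068, 0.15, -0.12 and -0.52 on DmD8 arrays 1 to 5, and 0.55, 0.41, 0.24, 0.65, 0.68 and 0.17 on Kc arrays 1 to 6. It was positive on 6 of 6 Kc arrays and 3 of 5 DmD8 arrays. The lines did not overlap, but only narrowly, with 0.15 the highest DmD8 value and 0.17 the lowest Kc value.

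ctrip rose in Kc (0.45 ± 0.09; limma, adjusted p = 0.00581) with a mean of -0.12 ± 0.10 in DmD8 (adjusted p = 0.518). The difference was -0.57 ± 0.13 (limma, adjusted p = 0.0159), -0.32 within Cy5 (adjusted p = 0.299) and -0.82 within Cy3. The rise passed in 35 of the 36 pairings and the difference in 18 (adjusted p up to 0.0512 and 0.145), and without DmD8 array 5 the difference had an adjusted p of 0.0673. None of the 6 tested genes of clock input, neurons and output passed in either line, beside 7.24% of all features in DmD8 and 11.9% in Kc. With an unadjusted p under 0.05 in limma there were 1 in DmD8 and 0 in Kc, beside 19.7% and 24.6% of all features. Nothing is read from these counts in so few genes. The 6 genes were timeout, Shaw, Dh31, qsm, Slob and Dh44, with means from -0.32 to 0.077 in DmD8 and from -0.27 to 0.16 in Kc. For the difference 3 of the 22 passed, slmb, kay and ctrip, beside 10.9% of all features, and all 3 were lower in DmD8.

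**Figure D3:**
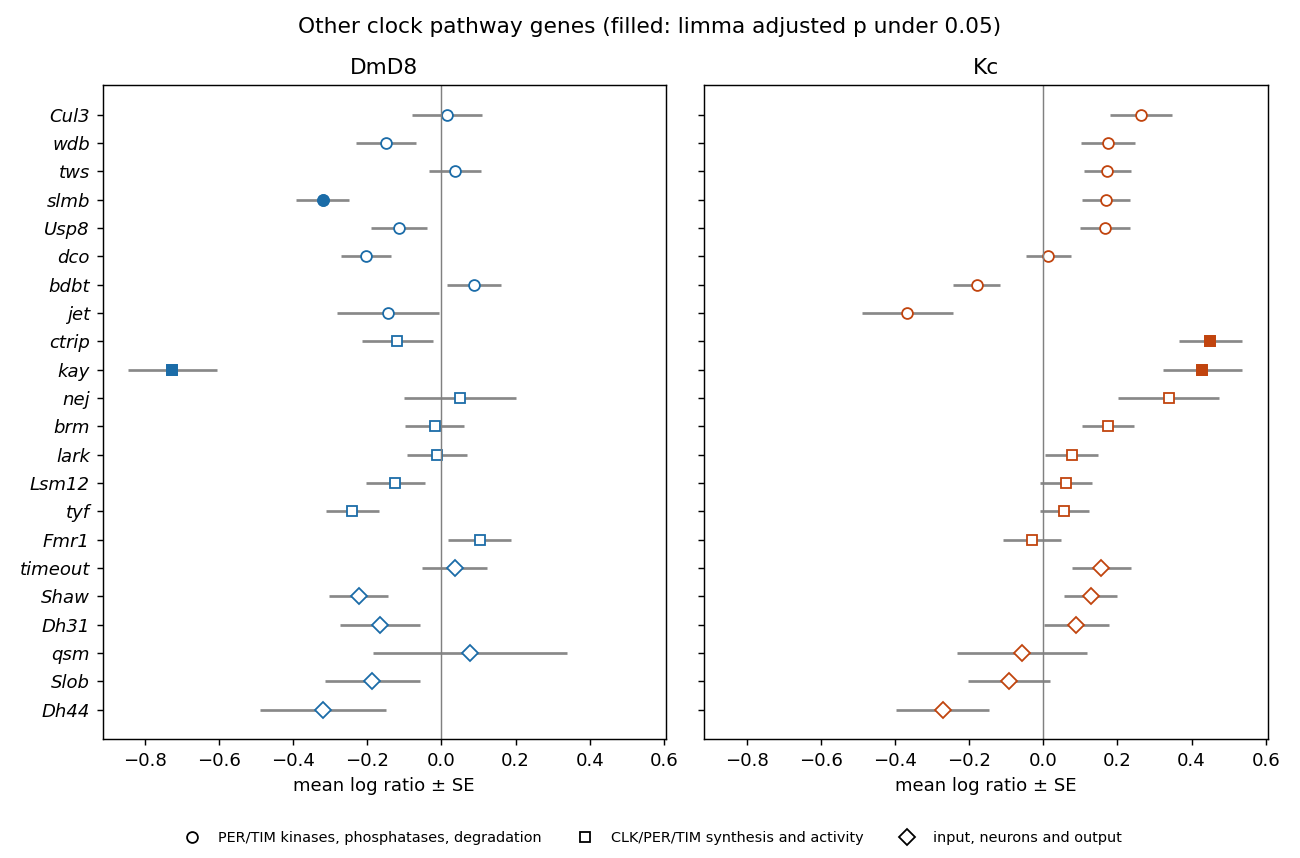
Mean log ratio with its SE (horizontal axes) of the 22 tested other clock pathway genes in DmD8 (left) and Kc (right), grouped by role through the marker shape and ordered by the Kc mean within each group. Filled markers passed the test: slmb at -0.32 and kay at -0.73 in DmD8, and ctrip at 0.45 and kay at 0.43 in Kc.

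The genes most like vri were found as the 5 named genes with the smallest root mean square difference of log ratio from vri over 11 arrays, among 6378 named genes complete on all of them. Ctns, the lysosomal cystine transporter gene, was nearest at 0.41, with -0.56 to -0.16 in DmD8 and 1.77 to 2.17 in Kc. CG14961 followed at 0.53, with -1.30 to -0.31 in DmD8 and 1.19 to 1.86 in Kc, and it was negative on every DmD8 array as vri was. CG14606 (0.61), CG12290 (0.77) and dysf (0.78) had large Kc values but lay on both sides of 0 in DmD8. For dysf, a bHLH-PAS gene, the DmD8 range was -0.92 to 1.00 and the Kc range 2.55 to 3.39. The arrays of a line share their cells, and the swaps are read as sharing RNA with the other arrays.

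**Figure D4:**
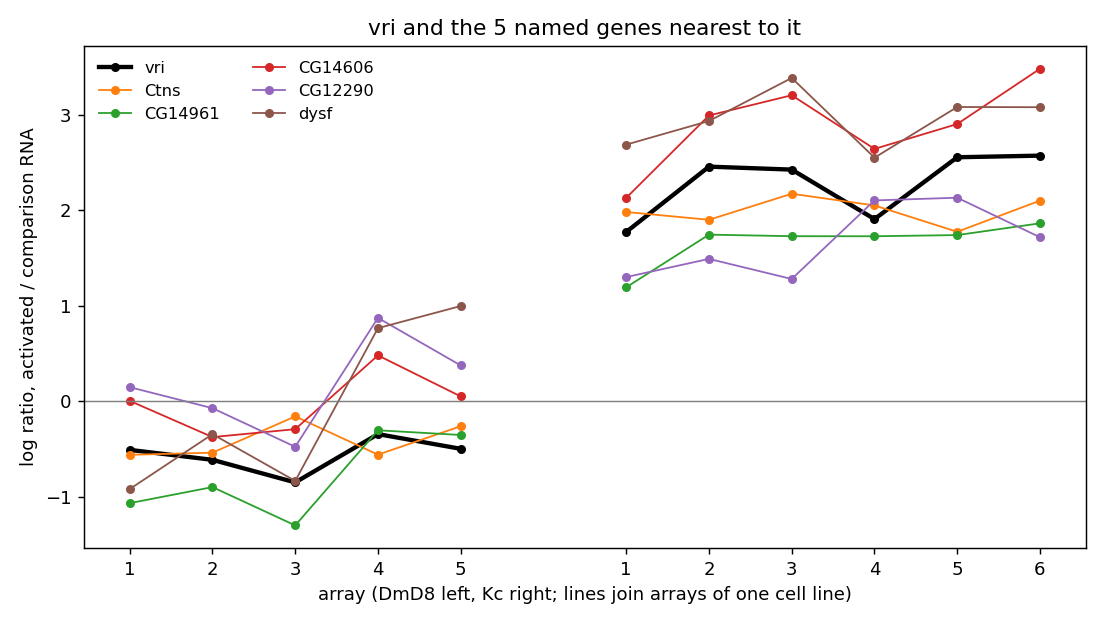
Log ratio of activated over comparison RNA (vertical axis) on each array (horizontal axis; DmD8 left, Kc right) for vri, in black, and the 5 named genes nearest to it. All 6 genes were above 1 on every Kc array. vri, Ctns and CG14961 were below 0 on every DmD8 array, while dysf, CG14606 and CG12290 were not.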

How the data were processed

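The deposited values are log ratios, taken as log2 from their range (-3.35 to 6.51), with the base not recorded. Per the labels they come from 2-colour long-oligonucleotide arrays whose spots were quantified with Dapple, and no source used here gives the background correction, the normalization or the direction of the ratio. Array medians ran from -0.13 to 0.16. In the platform annotation 12658 of 17258 probes had 1 gene symbol, 96 had several and 4504 had none. Probes of 1 gene were averaged, and a feature was tested where each line had at least 3 values and both dye orientations. The model in limma 3.58.1 (R 4.3.3) took 11 arrays, a mean per line and a dye term per line, and was tested on simulated data. The simulated arrays had independent noise, so that test does not cover P values where swaps repeat an RNA. P values were adjusted by Benjamini-Hochberg over 12952 features at a threshold of 0.05. Where a gene lacked a value on an array, the fit left that array out. Errors are standard errors of the fit unless an SD is named. Figures used matplotlib 3.10.9. Precision is limited by the number of arrays.

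Pairs of arrays with opposite dyes correlated at a mean of -0.03 in DmD8 and 0.01 in Kc, and pairs with the same dyes at 0.54 and 0.61. Whether the swaps were turned is not recorded. Deviations from the orientation mean correlated positively for Kc arrays 1 and 4, 2 and 5, and 3 and 6 (0.54, 0.40 and 0.33). They correlated negatively for Kc arrays 1 and 6, 2 and 4, and 3 and 5 (-0.26, -0.29 and -0.11). Turned repeats of 1 RNA would correlate positively and unturned ones negatively, but which arrays share RNA is not recorded either. These correlations therefore cannot tell whether the swaps were turned. With swaps turned 0 features differed between the lines (limma, 752 at an unadjusted p under 0.05), against 1415 as deposited. The swaps were taken as deposited. The members, gene lists, tests and alternatives were chosen with earlier results of these data known. Named were the members with a probe, the listed pathway genes that passed in a line, and the 5 genes nearest to vri. Besides these dco, jet, bdbt, wdb, the untested pathway genes and the genes of clock input, neurons and output were named after their values were seen. No sequence of a probe or gene was used here.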

Additional observations from a re-analysis of the deposited data

Results flagged for a closer look

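Several log ratios differed between the lines. vri differed by -2.82, DmD8 minus Kc, with every DmD8 array negative and every Kc array positive, and this difference was not tested. By limma's test of the difference over 12952 features, Cipc (-1.20), kay (-1.15), Pdp1 (-0.95), ctrip (-0.57) and slmb (-0.49) were lower in DmD8 than in Kc. Of the 36 pairings of swaps with replicates, ctrip passed in 18 and slmb in 19, and the other 3 passed in all. The comparison RNA of DmD8 was from PBS or DFK-167 cells and that of Kc from PBS cells, so a difference of the cells and one of the comparison RNA cannot be told apart.

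cry on Kc array 4, at -0.29, lay apart from the other 4 Kc values by Dixon's test, which flags about 1 in 20 groups by chance.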

How the results depend on the processing

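Turning the sign of the swap arrays changed most results. vri then stood at -0.12 in DmD8, -0.063 in Kc and -0.055 for the difference, and of the 6 other tested clock genes 1 was called in DmD8 and 0 for the difference (limma; 0 of 6 at an unadjusted p under 0.05). Called values whose sign turned there, or that turned into a call, were per at -0.044 in DmD8, Cipc at 0.57 in DmD8 and 0.049 for the difference, Pdp1 (-0.079), slmb (-0.32), kay (-0.26) and ctrip (-0.050) in Kc, and slmb (0.011), kay (0.12) and ctrip (0.25) for the difference. Some values without a call changed sign too: cyc (-0.16), cry (0.15) and ctrip (0.20) in DmD8, per (-0.077) and cyc (-0.20) in Kc, and cry (0.067) for the difference. Turning the swaps exchanges the mean and the dye term, by construction. With the Cy5 arrays alone Cipc in DmD8 turned to 0.029, and 1 of the 6 was called in DmD8. Without a dye term 1 was called in each of the 3 comparisons. With every pairing of swaps and replicates 1 was called in DmD8, with 2 in Kc and 2 for the difference. The replicate block left 1 call in DmD8, Cipc, with per at an adjusted p of 0.0503. The cause of these changes was not tested. Leaving out 1 array gave 1 to 2 calls in DmD8, and 2 in Kc and for the difference; 1 in DmD8 came without array 4. Whether same-numbered arrays of the lines were handled together is not recorded. Their deviations correlated at -0.33 to 0.20, and 1 of 5 DmD8 arrays correlated best with its own number in Kc. Deviations within an orientation cancel out for each feature, so these correlations cannot decide it.

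Over all features the calls (938 in DmD8, 1542 in Kc, 1415 for the difference) became 2211, 2592 and 0 with swaps turned (752 at an unadjusted p under 0.05 for the difference), 456, 655 and 505 without a dye term, 307, 812 and 504 with the replicate block, and 158, 498 and 244 under every pairing. They were 197 for the difference with Cy5 arrays alone, 818 in Kc and 848 for the difference without Kc arrays 2 and 5, and 437 in DmD8 and 850 for the difference without DmD8 array 4. DmD8 had 623 without array 2 and 560 without array 5, and Kc 905 without array 4 and 1022 without array 5. The calls among the 22 other clock pathway genes ranged from 0 to 3 in DmD8, 0 to 5 in Kc and 0 to 4 for the difference over 20 alternatives (at least 2, 4 and 1 at an unadjusted p under 0.05). Of 527 values of single genes under an alternative, 456 kept direction and side of the threshold, 35 lost a call, 11 turned sign with a call on either side, 23 changed sign without a call, and 2 gained a call (tim in Kc, at -0.84 with swaps turned and -1.08 with the Cy5 arrays alone). The 456 were not all free to change direction, since leaving out an array does not move the mean of the other line. Genes far from the threshold also count among them. The number of the 22 with an unadjusted p under 0.05 in Kc was 6 with each array centred on its median, against 11 as deposited.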
